A study of Mus musculus with 8 samples.

Results

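The 45 genes described here encode the machinery of DNA replication and S phase: origin licensing, helicase activation, the replication fork, deoxynucleotide synthesis, chromatin assembly behind the fork, and control of the G1/S transition. They were chosen by name from a fixed list and matched from Entrez gene ID to mouse symbol. All 45 of 45 were in the tables, among 12830 genes in all, and all 45 passed the filter on low counts. Counts per library ranged from 52 to 7782 for these genes.

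RNA was sequenced from AML410, a mouse acute myeloid leukaemia with monosomal karyotype that is p53-/-, with no p53, and in which a short hairpin RNA lowers PU.1 (shPU.1). PU.1 is the myeloid transcription factor encoded by Spi1. The hairpin is linked to green fluorescent protein (GFP) and is shut off by doxycycline (Dox), so PU.1 returns and GFP fades over the days of treatment. All 8 libraries came from GFP-positive cells sorted from the bone marrow of leukaemic recipients on the C57BL/6 strain, and all carry the same p53-/- shPU.1 leukaemia. The 4 groups of 2 libraries were untreated (gate GFPhigh), Dox for 2 days (GFPhigh-mid), Dox for 4 days (GFPmid) and Dox for 6 days (GFPlow). Gate and day of Dox therefore cannot be told apart, and neither can Dox itself and loss of the hairpin, since no group received Dox without carrying the hairpin. AML410 is 1 leukaemia, and no age or sex of the mice is given in the sources used here. The titles call the libraries of a group technical replicates, while the series text speaks of duplicate mice, so p-values measure the spread between these libraries, which may be technical. RNA was from bulk populations, in which fewer cycling cells and less RNA per cycling cell cannot be told apart.

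Replication begins with licensing in G1. The origin recognition complex, with Cdc6 and Cdt1, loads the MCM2-7 helicase onto DNA, and geminin (Gmnn) blocks Cdt1 once S phase has begun. Cdc45 and the GINS complex then turn the loaded MCM ring into an active helicase, polymerases copy the strands with the sliding clamp Pcna and its loader replication factor C, and ribonucleotide reductase supplies the deoxynucleotides. Many of these genes are known targets of E2F transcription factors, which are held in check by the retinoblastoma protein. In the myeloid lineage, proliferating precursors use this machinery and mature neutrophils no longer do.

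Library totals ranged from 9262047 to 11213292 counts. In 1 of the 2 day 2 libraries (replicate 1), a single gene ID without a symbol took 13.3% of all counts, against 0.957% to 1.73% for the top gene of the other libraries. The same library had the highest level of the B cell marker Cd79a, 18.5 CPM (counts scaled to library size), against 1.35 in its partner. Cd79a was at 11.2 and 4.78 CPM in the untreated libraries. The other listed B cell markers were also highest in that day 2 library, except Ighm and Cd22. Those were highest in day 4 replicate 2, at 707 and 20.6 CPM. At day 6 against untreated, 2 of the 9 listed B cell markers rose and 0 fell, with a median log2 fold change of -0.33. Spi1 itself was at 8.34 and 12.9 CPM in the untreated libraries, 14.8 and 15.6 at day 2, 94.0 and 103 at day 4, and 217 and 229 at day 6. The 10 markers of mature neutrophils summed to 1950 and 1316 CPM in untreated libraries, 2953 and 2035 at day 2, 5394 and 7811 at day 4, and 29520.5 and 36601 at day 6. The 8 genes of the leukaemic myeloid list summed to 16468 and 14663 CPM in untreated libraries, 18421.5 and 17674 at day 2, 11063 and 10631 at day 4, and 5989 and 5858 at day 6, a sum carried by Elane and Ctsg. At day 6, 4 of the 8 fell and 2 rose, with a median log2 fold change of -0.24. The pan-leukocyte gene Ptprc of that list went from 28.0 and 26.6 CPM untreated to 680.0 and 682 at day 6. In that list Cd34 stayed near 0, between 0.596 and 1.95 CPM in all libraries. The 9 markers of monocytes and macrophages summed to 4957 to 7490 CPM in untreated and day 2 libraries and to 9850 to 11873 CPM at days 4 and 6, a sum carried by Ly6c2. Each of the 9 was higher in the day 6 libraries than in the untreated ones, by widely differing amounts. Ly6c2 went from 4978 and 4564 CPM untreated to 6699 and 6485 at day 6, and Csf1r from 39.7 and 31.8 to 1008 and 949. Of 7 erythroid markers tested, 5 rose and 1 fell at day 6, with a median log2 fold change of 2.25, and the globin gene Hba-a2 went from 5.53 and 2.35 CPM untreated to 12.05 and 25.8. The cytotoxic granule gene Nkg7 was at 130.4 and 111 CPM untreated and at 185 and 215 at day 2, where it rose (log2 fold change 0.73). At day 4 Nkg7 was at 114 and 122 CPM and was not called against untreated. At day 6 it was at 105 and 93.2 CPM and fell against untreated (log2 fold change -0.29). Of the 9 listed markers of T and natural killer cells, Nkg7 was the 1 that could be tested. No gene ID was matched to the T cell markers Cd3e, Cd3d and Cd3g. These shifts in cell state ran with the days of Dox beside every result below, and their part in it was not tested.

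Libraries were scaled by TMM, which assumes that most genes do not change, and by total counts. Total counts lowered the median log2 fold change of all genes from 0.00, -0.02 and -0.04 under TMM to -0.17, -0.27 and -0.47 at days 2, 4 and 6 against untreated. Fold changes are given under TMM unless stated, and a value under total counts is to be read against those medians. A gene was called when its edgeR quasi-likelihood p, adjusted by Benjamini-Hochberg over all 12330 genes tested, was under 0.05. Under TMM 32% of all genes were called higher and 31.6% lower at day 6 against untreated, so the TMM assumption may not hold there. The comparisons with untreated share the same 2 untreated libraries.

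**Figure D1:**
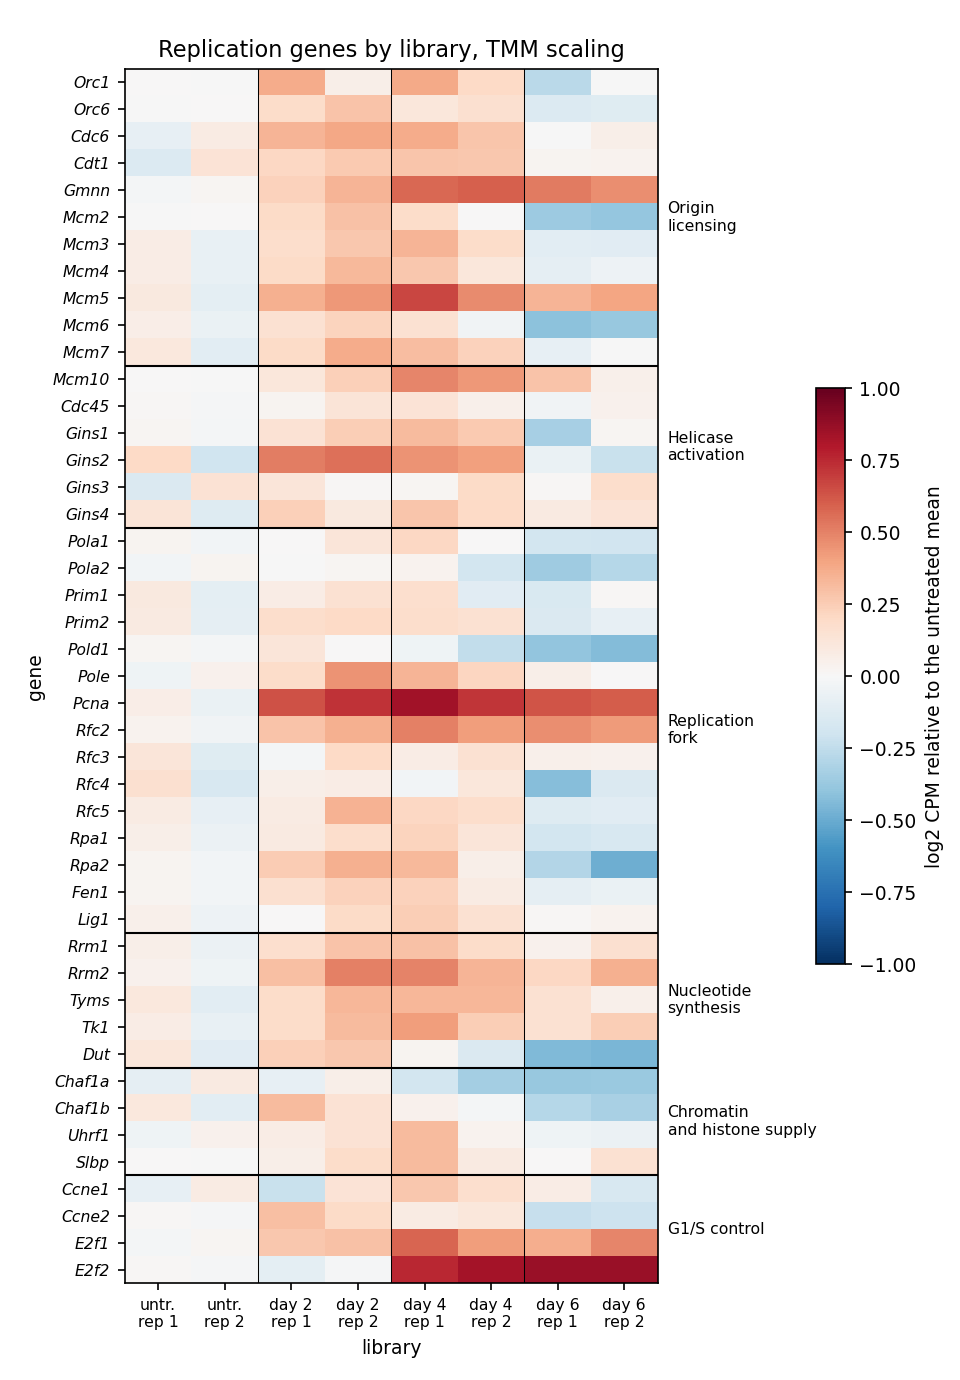
Log2 CPM (TMM) of the 45 genes in each of the 8 libraries, relative to the mean of the untreated libraries, with genes in rows grouped by role and libraries in columns. Red is above and blue below the untreated mean. Most rows are redder at days 2 and 4, and at day 6 rows such as Pcna, Gmnn and E2f2 stay red while Mcm2, Mcm6, Rpa2 and Dut turn blue.

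The replication genes moved little in size. None changed more than 2-fold in any comparison, while 2.97% of all genes did at day 2, 17.6% at day 4 and 27% at day 6 against untreated, 13.9% from day 2 to day 4 and 9.26% from day 4 to day 6. At day 2, 6 of the 45 rose (Cdc6, Mcm5, Gins2, Pcna, Rfc2 and Rrm2), against 4.18% of all genes that rose. The edgeR test called 0 members lower, against 1.95% of all genes, and 0 were lower at an unadjusted p under 0.05 or by DESeq2. At day 4, 17 rose and 1 (Chaf1a) fell, against 26.1% and 22% of all genes. At day 6, 7 rose and 8 fell, against 32% and 31.6% of all genes. A test for any difference among the 4 groups called 33 of the 45, against 65.1% of all genes. The median log2 fold change of the 45 was 0.22 at day 2, 0.20 at day 4 and -0.05 at day 6. Less the median of all genes, these were 0.22, 0.22 and -0.01, and since scaling shifts all genes of a library alike, these differences hardly depend on it.

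These counts depended on scaling and on single libraries. Under total counts 1 member rose at day 2 (Pcna), 3 rose (Gmnn, Pcna and E2f2) and 2 fell (Pold1 and Chaf1a) at day 4, and 1 rose (E2f2) and 35 fell at day 6. The share of all genes called under total counts was 1.38% up and 5.34% down at day 2, 14.7% and 36.7% at day 4, and 16.9% and 53.9% at day 6. At day 2 the count of 6 rose when untreated replicate 1 was left out. The count fell when any other library was left out, most without day 2 replicate 2 or either day 6 library. At day 4 the count of 17 fell most without day 4 replicate 1 or untreated replicate 2. It fell less without day 4 replicate 2 or either day 6 library, and rose without untreated replicate 1 or day 2 replicate 2. The count of all genes called higher moved the same way in these fits, except at day 4 without untreated replicate 1, where it fell. Less the median of all genes, the day 4 median of the 45 was 0.19 without day 4 replicate 1. It was 0.18 without untreated replicate 2 and 0.22 with all libraries. The single fall at day 4 was lost without untreated replicate 2, day 4 replicate 2 or either day 6 library.

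The groups of 33 members did not overlap between day 2 and untreated libraries, against 48.6% of all genes. The same held for 34 members at day 4, against 73.1% of all genes, and for 25 at day 6, against 82.1%.

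Of the 11 origin licensing genes, 2 rose at day 2, against 4.18% of all genes, and 6 at day 4 (Cdc6, Cdt1, Gmnn, Mcm3, Mcm5 and Mcm7), against 26.1%. At day 6 Gmnn and Mcm5 rose under TMM, with log2 fold changes of 0.06 and -0.07 under total counts, while Mcm2 and Mcm6 fell under both scalings. The subunits of one helicase ring thus went in opposite directions between untreated and day 6 under TMM. Of all genes 32% rose and 31.6% fell at day 6 under TMM, and 53.9% fell under total counts.

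Mcm5 (Entrez 17218, chr8:75109468-75128439, GRCm38.p6) encodes a subunit of the MCM2-7 ring. Its level was 365 and 319 CPM in untreated libraries, 435 and 461 at day 2, 542 and 473 at day 4, and 431 and 448 at day 6. All 6 Dox libraries lay above both untreated ones, with the highest values at day 4. The log2 fold change was 0.39 ± 0.09 (SE, edgeR adjusted p = 0.0318) at day 2, 0.57 ± 0.09 (adjusted p = 0.000363) at day 4 and 0.36 ± 0.09 (adjusted p = 0.00486) at day 6. Under total counts these were 0.22, 0.32 and -0.07, and none was called.

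Mcm6 (Entrez 17219, chr1:128331575-128359705) encodes another subunit of the same ring. It was at 627 and 570.1 CPM in untreated libraries, 663 and 698 at day 2, 665 and 585 at day 4, and 450.4 and 459 at day 6. The day 6 libraries were the lowest and did not overlap with any other group. Its log2 fold change at day 6 was -0.40 ± 0.09 (SE, edgeR adjusted p = 0.002), and -0.83 under total counts. Mcm2 (Entrez 17216) was at 249.8 and 251 CPM untreated, 286 and 307 at day 2, 284 and 250.6 at day 4, and 195 and 192 at day 6. It fell by 0.37 ± 0.08 on the log2 scale at day 6 (edgeR adjusted p = 0.00151) and likewise stood apart from all other groups.

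The other 3 subunits were called neither way at day 6, with log2 fold changes of -0.11 (Mcm3), -0.07 (Mcm4) and -0.04 (Mcm7). Under total counts all 3 fell with most other members. Per kilobase of gene length, Mcm6 was the highest of the ring in untreated cells at 206 ± 13.9 CPM per kb (SD, n = 2), followed by Mcm3 at 108 ± 8.06 and Mcm5 at 99.9 ± 9.66, which did not differ beyond their spread. Mcm7 (74.7 ± 7.52), Mcm2 (74.3 ± 0.311) and Mcm4 (65.9 ± 5.04) were lower. At day 6 Mcm6 was at 157 ± 2.03, Mcm5 at 128 ± 3.47 and Mcm3 at 99.6 ± 0.569 CPM per kb, so the gap between the first and the others had narrowed.

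A ratio of counts within a library does not depend on scaling. In the pairs of single genes here and below, the first gene had the higher fold change at day 6. A higher ratio at day 6 therefore follows from the choice of pair and is not separate support. The ratio of Mcm5 to Mcm6 was 0.582 and 0.559 in untreated libraries, 0.657 and 0.660 at day 2, 0.816 and 0.808 at day 4, and 0.957 and 0.976 at day 6. It was higher at each later time with no overlap between groups, and the libraries of a group differed little. The ratio of Mcm5 to Mcm2 was 1.46 and 1.27 in untreated libraries and 2.21 and 2.34 at day 6.

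The promoters of Mcm5 and Mcm6 are shown because the transcripts moved in opposite directions at day 6 under TMM while both windows hold E2F-type words. Windows ran from 250 bases before to 50 bases after the transcription start in RefSeq (GRCm38.p6). The words searched were TTTGGCGC, TTTCCCGC, TTTGCCGC and TTTCGCGC on either strand, and capitals mark them. In both genes a word on 1 strand overlaps a word on the other strand. The Mcm5 stretch is chr8:75109329-75109388 on the plus strand, from -180 to -121, and the Mcm6 stretch is chr1:128359736-128359835 on the minus strand, from -130 to -31, with a further match.
Mcm5: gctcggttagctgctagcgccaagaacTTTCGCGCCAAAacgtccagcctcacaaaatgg
Mcm6: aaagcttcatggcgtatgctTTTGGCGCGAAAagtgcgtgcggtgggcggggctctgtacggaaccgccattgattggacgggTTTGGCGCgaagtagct

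Gmnn (Entrez 57441, chr13:24751845-24761937) encodes geminin, the inhibitor of Cdt1. It was at 45.4 and 46.6 CPM untreated, 54.1 and 58.2 at day 2, 68.5 and 69.6 at day 4, and 65.9 and 63.4 at day 6. The libraries of days 4 and 6 lay above all earlier ones. It rose by a log2 fold change of 0.59 ± 0.08 at day 4 (SE, edgeR adjusted p = 8.73e-05; 0.34 and still called under total counts). At day 6 the value was 0.49 ± 0.08 (edgeR adjusted p = 0.000226), and 0.06, not called, under total counts. Cdt1 was at 108 and 131 CPM untreated, 144 and 143 at day 4, and 121 and 122 at day 6, where it lay within the untreated range. The ratio of Gmnn to Cdt1 counts was 0.422 and 0.357 untreated, 0.395 and 0.408 at day 2, 0.476 and 0.487 at day 4, and 0.544 and 0.522 at day 6, so untreated and day 2 libraries overlapped and the later ones were higher.

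Cdc6, which helps load the MCM ring, had the smallest change of the licensing genes at day 6. It was at 43.1 and 48.0 CPM untreated, 57.5 and 59.5 at day 2, 58.9 and 55.1 at day 4, and 45.3 and 47.4 at day 6. The log2 fold change was 0.36 ± 0.09 at day 2 (SE, edgeR adjusted p = 0.0349), 0.32 ± 0.09 at day 4 (adjusted p = 0.00957) and 0.02 ± 0.09 at day 6 (adjusted p = 0.823), which turned to -0.41 under total counts. The day 2 and day 4 libraries stood above the others, and day 6 overlapped with untreated. Orc1, the largest subunit of the origin recognition complex, was the lowest of all members per kilobase, at 2.34 ± 0.00554 CPM per kb untreated, and was called in no comparison.

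**Figure D2:**
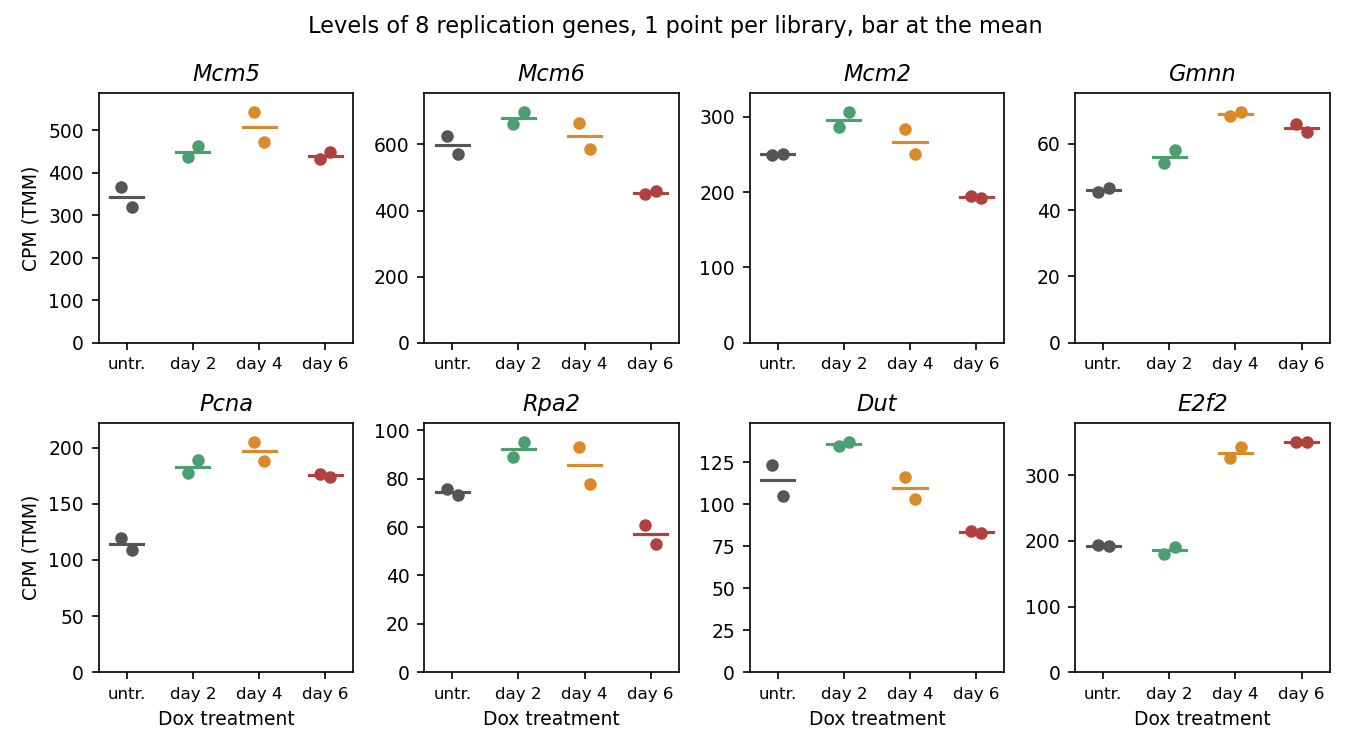
CPM (TMM) of 8 replication genes against Dox treatment, with 1 point per library, a bar at the mean of the 2 libraries and a vertical axis from 0. Mcm5, Gmnn, Pcna and E2f2 end above the untreated libraries at day 6, and Mcm6, Mcm2, Rpa2 and Dut end below them. Under total counts Mcm5 was -0.07 and Gmnn 0.06 (log2) from untreated at day 6.

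Of the 6 helicase activation genes, which switch on the MCM ring, 1 (Gins2) rose at day 2 and 2 (Gins2 and Mcm10) rose at day 4, against 4.18% and 26.1% of all genes. At day 6 edgeR called 0 of 6 against untreated, where 32% of all genes rose and 31.6% fell. At that time 0 of the 6 had an unadjusted p under 0.05 and DESeq2 called 0. Under total counts 4 of the 6 fell at day 6, against 53.9% of all genes.

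Mcm10 (Entrez 70024, chr2:4990724-5012791), a scaffold that helps open the origin, was at 44.96 and 44.94 CPM untreated, 48.5 and 53.1 at day 2, 63.2 and 60.6 at day 4, and 54.8 and 46.7 at day 6. Day 4 stood above all other groups, and the 2 day 6 libraries spread over most of the gap. It rose by 0.46 ± 0.09 at day 4 against untreated (log2, SE, edgeR adjusted p = 0.00183; 0.21 and not called under total counts). Gins2 was at 25.9 and 19.7 CPM untreated, 32.2 and 33.0 at day 2, 30.9 and 30.0 at day 4, and 21.6 and 19.3 at day 6. Its 4 libraries of days 2 and 4 stood above the rest, with a log2 fold change of 0.52 ± 0.13 at day 2 (SE, edgeR adjusted p = 0.0416; 0.34 and not called under total counts).

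Cdc45, the partner of MCM and GINS in the active helicase, was nearly level at 124 and 121 CPM untreated, 125 and 134 at day 2, 135 and 127 at day 4, and 119.6 and 127 at day 6. Its log2 fold change at day 6 was 0.00 ± 0.08 (SE, edgeR adjusted p = 0.966), and -0.43 under total counts, close to the median of all genes there. The 4 GINS subunits differed in pattern. Gins3 was at 15.5 and 18.9 CPM untreated and 17.2 and 19.3 at day 6, overlapped in every comparison and was called in none, while Gins2 and Gins1 fell between days 4 and 6. The Gins3 promoter is shown beside those of the MCM genes because it holds a word of the same kind, on the opposite strand, above a transcript that was not called. The stretch is chr8:95633489-95633548 on the plus strand, from -70 to -11 (RefSeq, GRCm38.p6).
Gins3: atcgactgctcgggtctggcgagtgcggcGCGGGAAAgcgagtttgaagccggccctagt

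Of the 15 replication fork genes, 2 (Pcna and Rfc2) rose at day 2 and 3 (Pcna, Rfc2 and Pole) at day 4, against 4.18% and 26.1% of all genes. At day 6 Pcna and Rfc2 rose under TMM, with 0.18 and 0.01 under total counts, and Pola2, Pold1 and Rpa2 fell under both scalings. These 2 and 3 of 15 stood against 32% up and 31.6% down of all genes.

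Pcna (Entrez 18538, chr2:132249286-132253180), the sliding clamp that tethers polymerases to DNA, was at 120 and 109 CPM untreated, 177 and 188 at day 2, 205 and 188 at day 4, and 177 and 174 at day 6. All 6 Dox libraries were above both untreated ones by a wide margin. Its log2 fold change was 0.68 ± 0.08 at day 2 (SE, edgeR adjusted p = 0.00101), 0.78 ± 0.08 at day 4 (adjusted p = 9.5e-06) and 0.61 ± 0.08 at day 6 (adjusted p = 3.99e-05). Under total counts it was called at day 2 (0.50) and day 4 (0.53) and not at day 6 (0.18). Of the 6 members that rose at day 2, Pcna was the only one called under each of the other 3 scalings and without each library in turn.

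Rfc2 (Entrez 19718, chr5:134582690-134598328), a small subunit of the clamp loader, was at 80.1 and 76.6 CPM untreated, 95.3 and 100.1 at day 2, 111 and 105 at day 4, and 108 and 105 at day 6. Every Dox library lay above both untreated ones, with little change after day 4. The log2 fold change was 0.45 ± 0.07 at day 6 (SE, edgeR adjusted p = 0.000292; 0.01 under total counts). The other loader subunits measured, Rfc3, Rfc4 and Rfc5, were not called against untreated, with values of 0.04, -0.28 and -0.12 at day 6. The ratio of Rfc2 to Rfc4 counts was 2.09 and 2.49 untreated and 4.23 and 3.40 at day 6.

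Rpa2, part of the complex that coats single-stranded DNA, was at 75.8 and 73.2 CPM untreated, 89.0 and 95.3 at day 2, 93.1 and 77.7 at day 4, and 60.9 and 53.1 at day 6. Days 2 and 4 lay above untreated and day 6 below it. At day 6 it fell by 0.39 ± 0.10 on the log2 scale (SE, edgeR adjusted p = 0.00668) and by 0.82 under total counts. The ratio of Pcna to Rpa2 counts, free of scaling, was 1.58 and 1.49 untreated, 1.99 and 1.98 at day 2, 2.20 and 2.42 at day 4, and 2.90 and 3.28 at day 6, with no overlap between groups. Mcm2, Cdt1, Orc1, Gins3, Rpa2, Pold1 and Pola2 are described in addition to the genes that the naming rule chose, after their values were seen.

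Pold1, the catalytic subunit of polymerase delta, and Pola2, a subunit of the primase-polymerase alpha complex, also fell at day 6. Pold1 was at 137 and 133 CPM untreated and 103 and 99.9 at day 6, a log2 fold change of -0.41 ± 0.09 (SE, edgeR adjusted p = 0.00128). Pola2 was at 49.0 and 51.1 CPM untreated and 39.2 and 41.2 at day 6, at -0.32 ± 0.09 (edgeR adjusted p = 0.012). Day 6 lay below untreated in both, without overlap. Lig1, the ligase that joins Okazaki fragments, had the smallest change of the fork genes at day 6, from 223 and 208 CPM untreated, 216 and 245 at day 2 and 256 and 239 at day 4 to 217 and 221 at day 6. It overlapped with untreated at days 2 and 6 and its log2 fold change at day 6 was 0.02 ± 0.08 (SE, edgeR adjusted p = 0.831), and -0.41 under total counts.

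Of the 5 nucleotide synthesis genes, Rrm2 rose at day 2 and Rrm1, Rrm2, Tyms and Tk1 rose at day 4, against 4.18% and 26.1% of all genes, of which Rrm1 turned to -0.01 under total counts. At day 6 Rrm2 rose under TMM and turned to -0.15 under total counts, while Dut fell under both scalings. None of the rises was called under total counts. Of all genes 32% rose and 31.6% fell at day 6 under TMM, and 53.9% fell under total counts.

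Rrm2 (Entrez 20135, chr12:24708254-24714146), the small subunit of ribonucleotide reductase, was at 168.2 and 159 CPM untreated, 201 and 232 at day 2, 231 and 207 at day 4, and 189 and 209 at day 6. All Dox libraries lay above both untreated ones. Its log2 fold change was 0.40 ± 0.09 at day 2 (SE, edgeR adjusted p = 0.029), 0.42 ± 0.09 at day 4 (adjusted p = 0.00307) and 0.28 ± 0.09 at day 6 (adjusted p = 0.0201). Its large subunit partner Rrm1 was at 389 and 357 CPM untreated, 420.1 and 453 at day 2, 458 and 424 at day 4, and 383 and 416 at day 6, where it overlapped with untreated.

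Dut (Entrez 110074, chr2:125247248-125259049), the enzyme that removes dUTP before it can be built into DNA, was at 123 and 105 CPM untreated, 135 and 137 at day 2, 116 and 103 at day 4, and 84.0 and 82.9 at day 6. It was highest at day 2 and lowest at day 6, and day 6 overlapped with no other group. At day 6 it fell by 0.45 ± 0.09 on the log2 scale (SE, edgeR adjusted p = 0.00128) and by 0.89 under total counts. The ratio of Rrm2 to Dut counts was 1.36 and 1.51 untreated, 1.49 and 1.69 at day 2, 1.99 and 2.01 at day 4, and 2.25 and 2.52 at day 6. Untreated and day 2 libraries overlapped in this ratio, and days 4 and 6 were each higher.

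A further 20 genes of nucleotide metabolism, outside the 45, gave 6 that rose and 7 that fell at day 4, against 26.1% and 22% of all genes. At day 6, 4 rose and 12 fell, against 32% and 31.6%, with a median log2 fold change of -0.51 at day 6 against -0.04 for all genes. Samhd1, which degrades deoxynucleotides, went from 97.2 and 87.96 CPM untreated to 1349 and 1375 at day 6, a log2 fold change of 3.88 ± 0.13 (SE, edgeR adjusted p = 9.75e-10). Dck, the kinase that salvages deoxycytidine, went from 105 and 87.8 to 287 and 287 CPM (1.58 ± 0.09, edgeR adjusted p = 6.16e-08). In the other direction, Dctd, which deaminates dCMP on the way to thymidylate, went from 10.8 and 15.9 to 1.01 and 0.756 CPM (-3.90 ± 0.34, edgeR adjusted p = 1.59e-06). Shmt1, a folate cycle enzyme that supplies thymidylate synthesis, went from 74.9 and 65.7 to 17.8 and 17.3 CPM (-2.002 ± 0.13, edgeR adjusted p = 1.52e-07). These 4 changes were also called under total counts and without each library in turn. The remaining rises at day 6 were Mthfd2 (0.75) and Ctps2 (0.45), which were not called under total counts.

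Of the 4 genes of chromatin and histone supply, Chaf1a fell at day 4, and Chaf1a and Chaf1b fell at day 6, all under both scalings, against 22% and 31.6% of all genes under TMM. They encode the large and middle subunits of chromatin assembly factor 1, which deposits histones behind the fork. Chaf1a (Entrez 27221, chr17:56040416-56068026) was at 126 and 143 CPM untreated, 127 and 140.1 at day 2, 118 and 106 at day 4, and 103 and 104 at day 6. Day 2 matched the untreated range, and every library of days 4 and 6 lay below it. The log2 fold change was -0.26 ± 0.09 at day 4 (SE, edgeR adjusted p = 0.0313) and -0.38 ± 0.09 at day 6 (adjusted p = 0.00334). Chaf1b was at 40.5 and 35.05 CPM untreated, 46.8 and 41.7 at day 2, 38.8 and 37.2 at day 4, and 30.9 and 30.2 at day 6, at -0.31 ± 0.11 (edgeR adjusted p = 0.0238). It was highest at day 2, and day 6 lay below every other group.

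Uhrf1, which brings the maintenance DNA methyltransferase to new DNA, was at 162 and 173 CPM untreated, 176 and 185 at day 2, 208 and 171 at day 4, and 162 and 160.4 at day 6, and Slbp, the histone mRNA binding protein, had a log2 fold change of 0.08 at day 6. Neither was called in any comparison under TMM, and both fell at day 6 under total counts. Among 11 other genes of replication-coupled chromatin, Cbx5 (-0.60), Rbbp7 (-0.49) and Nasp (-0.35) fell at day 6, in log2 units and under both scalings, against 31.6% of all genes under TMM.

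Of the 4 G1/S control genes, E2f1 and E2f2 rose at days 4 and 6, against 26.1% and 32% of all genes, and the cyclin genes Ccne1 and Ccne2 were not called against untreated. E2f2 had the largest rise of all 45 genes at days 4 and 6, under TMM and under total counts.

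E2f2 (Entrez 242705, chr4:136172274-136196057), an activating E2F transcription factor, was at 194 and 192 CPM untreated, 180.4 and 191 at day 2, 326 and 343 at day 4, and 351 and 351 at day 6. Untreated and day 2 libraries formed a low set and days 4 and 6 a high one. The log2 fold change was -0.05 ± 0.07 at day 2 (SE, edgeR adjusted p = 0.706), 0.79 ± 0.07 at day 4 (adjusted p = 2.8e-06) and 0.86 ± 0.07 at day 6 (adjusted p = 7.77e-07). Under total counts it was 0.54 at day 4 and 0.43 at day 6, called in both. Between days 2 and 4 it rose by 0.85 ± 0.07 (SE, edgeR adjusted p = 2.86e-06). Its window holds 1 word of the kind seen in the MCM promoters, just after the start of transcription, at chr4:136172302-136172323 on the plus strand, from +29 to +50 (RefSeq, GRCm38.p6).
E2f2: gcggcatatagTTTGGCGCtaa

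E2f1 (Entrez 13555, chr2:154559400-154569892), the related activator, was at 38.4 and 39.2 CPM untreated, 46.8 and 47.6 at day 2, 58.2 and 51.9 at day 4, and 49.99 and 54.5 at day 6. All Dox libraries were above both untreated ones. It rose by a log2 fold change of 0.50 ± 0.09 at day 4 (SE, edgeR adjusted p = 0.000726) and 0.43 ± 0.09 at day 6 (adjusted p = 0.00157). Under total counts it was 0.25 and -0.01, and called in neither. Ccne1, which encodes cyclin E1, was at 27.4 and 30.8 CPM untreated, 24.9 and 31.9 at day 2, 35.04 and 32.7 at day 4, and 30.5 and 26.0 at day 6, and overlapped with untreated at days 2 and 6.

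Among 22 other regulators of the G1/S transition, 9 rose and 7 fell at day 6, against 32% and 31.6% of all genes. Rb1, the gene of the retinoblastoma protein, went from 70.2 and 65.8 CPM untreated to 133 and 139 at day 6, a log2 fold change of 0.999 ± 0.09 (SE, edgeR adjusted p = 1.99e-06; 0.57 and called under total counts). Cdk4, the kinase that phosphorylates it, went from 226 and 225 to 120 and 118 CPM (-0.93 ± 0.08, edgeR adjusted p = 1.63e-06). Skp2, which targets a cyclin-dependent kinase inhibitor for destruction, was at -0.93 ± 0.14 (edgeR adjusted p = 0.000136). E2f5, a repressor of the E2F family, was at -1.42 ± 0.30 (edgeR adjusted p = 0.0016), from 3.92 and 4.11 to 1.46 and 1.51 CPM. All 3 falls were also called under total counts.

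Licensing, fork and nucleotide synthesis genes, the 3 main roles, were set side by side. Less the median of all genes, the median log2 fold change at day 2 was 0.24 for licensing, 0.13 for fork and 0.25 for nucleotide synthesis genes. At day 4 the values were 0.28, 0.18 and 0.34, and at day 6 they were -0.03, -0.08 and 0.14. Without each library in turn, the day 6 value ran from 0.069 to 0.25 for nucleotide synthesis and from -0.17 to 0.0029 for fork genes. These fits share most of their libraries, so the ranges do not measure the uncertainty of either median. The difference between roles was not tested. Within each role the members ranged widely at day 6, from -0.40 to 0.49 for licensing, from -0.41 to 0.61 for fork and from -0.45 to 0.28 for nucleotide synthesis.

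**Figure D3:**
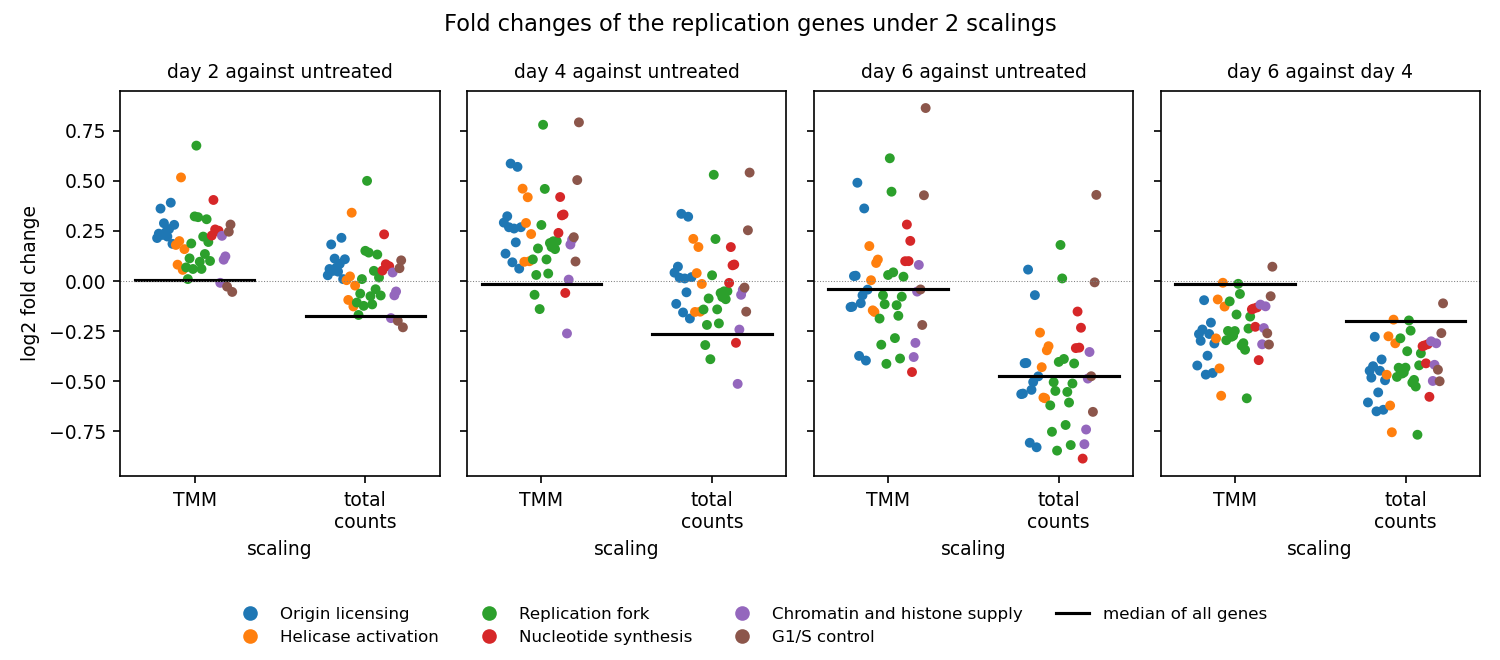
Log2 fold change of each of the 45 genes in 4 comparisons, under TMM on the left and total counts on the right of each panel, with 1 point per gene coloured by role and a bar at the median of all genes. The whole set shifts down with the bar under total counts, to a median of -0.49 at day 6 where all genes are at -0.47, and E2f2 is the highest point at day 6 under both.

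Ratios between the roles, taken as geometric means of counts within each library, hardly moved. Licensing over fork was 1.51 and 1.58 untreated, 1.65 and 1.61 at day 2, 1.65 and 1.66 at day 4, and 1.57 and 1.60 at day 6. Nucleotide synthesis over fork was 1.60 and 1.54 untreated and 1.67 and 1.71 at day 6. Nucleotide synthesis over licensing was 1.06 and 0.970 untreated and 1.07 and 1.07 at day 6. Day 6 overlapped with untreated in the first of these ratios, and in the others the day 6 libraries were slightly higher. No test was made of these ratios.

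**Figure D4:**
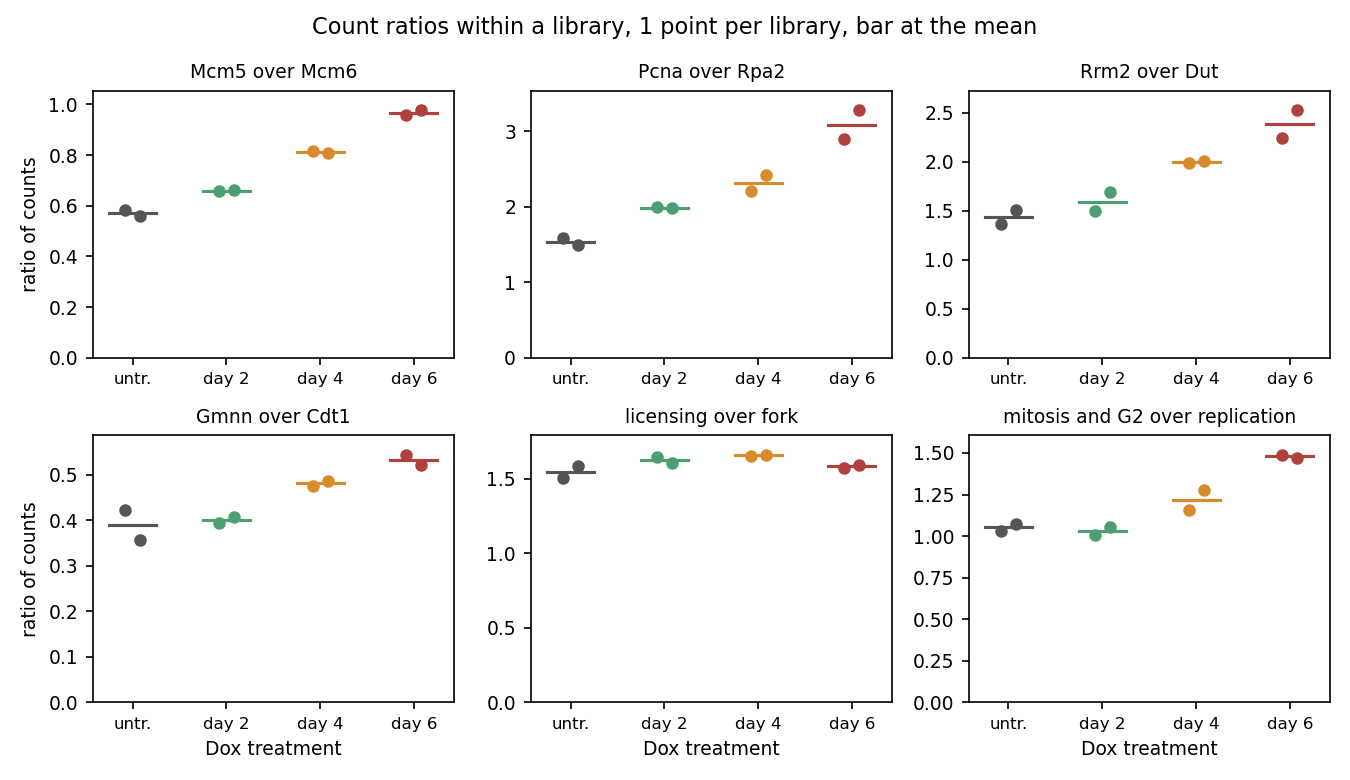
Ratios of counts within a library against Dox treatment, with 1 point per library, a bar at the mean and a vertical axis from 0. The means of Mcm5 over Mcm6, Pcna over Rpa2 and Rrm2 over Dut are higher at each later time, Gmnn over Cdt1 is higher from day 4, licensing over fork stays between 1.51 and 1.66, and the mitosis and G2 genes over the replication genes reach 1.49 and 1.47 at day 6. For the pairs of single genes a higher ratio at day 6 follows from the choice of pair.

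From day 2 to day 4 few replication genes changed. E2f2, Gmnn and Mcm10 rose and Dut and Chaf1a fell, 3 and 2 of 45 against 21.7% and 15.9% of all genes. Gmnn went up by 0.30 ± 0.08 (log2, SE, edgeR adjusted p = 0.0109) and Mcm10 by 0.28 ± 0.09 (adjusted p = 0.0356), and neither was called under total counts (0.22 and 0.21). Dut fell by 0.31 ± 0.09 (edgeR adjusted p = 0.0199) and was called under total counts, and Chaf1a fell by 0.25 ± 0.09 (adjusted p = 0.0459) and was not. Only 1 rise was left when day 2 replicate 1 or day 4 replicate 2 was taken out. The falls became 0 without day 2 replicate 2 or day 4 replicate 2, and 1 without either day 6 library. Under total counts 1 rose and 1 fell, against 15.2% and 15.6% of all genes. The groups of 18 members did not overlap, against 70.5% of all genes.

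The step from day 4 to day 6 gave the most falls under TMM. Of the 45, 20 fell, against 14% of all genes, and edgeR called 0 higher, against 15.9% of all genes, with 0 higher at an unadjusted p under 0.05 or by DESeq2. The falls were 7 of 11 licensing genes (Orc6, Cdc6, Mcm2, Mcm3, Mcm4, Mcm6 and Mcm7), 3 of 6 helicase activation genes, 7 of 15 fork genes, and 1 each of nucleotide synthesis (Dut), chromatin (Chaf1b) and G1/S genes (Ccne2). The median of the 45 was -0.25, against -0.02 for all genes, and only 1 of the 45 (E2f2) had a value above 0, at 0.07, which turned to -0.11 under total counts. Under total counts 28 fell and 0 rose, against 21.5% and 7.15% of all genes. The groups of 38 members did not overlap, against 71% of all genes.

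The largest of these falls were Rpa2 at -0.59 ± 0.10 (log2, SE, edgeR adjusted p = 0.0017), Gins2 at -0.57 ± 0.14 (adjusted p = 0.00854), Mcm2 at -0.47 ± 0.08 (adjusted p = 0.00129) and Mcm6 at -0.46 ± 0.09 (adjusted p = 0.0026). Rpa2, Mcm2 and Mcm6 were called without each library in turn and in every scaling. The count of 20 was less firm, and fell most when day 4 replicate 1 or either day 6 library was left out. The count of all genes called lower fell in these fits too. Less the median of all genes, the median of the 45 was -0.18 without day 4 replicate 1. It was -0.23 without either day 6 library and -0.23 with all libraries. Of the 45 genes, 37 were higher in day 4 replicate 1 than in replicate 2, by a median of 0.10 on the log2 scale. DESeq2 called 9 of the 45 lower, against 8.49% of all genes.

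Genes of the rest of the replication machinery and of the next phases of the cycle were set beside the 45. Among 36 other replication genes, 11 rose and 5 fell at day 4, against 26.1% and 22% of all genes, and 10 rose and 14 fell at day 6, against 32% and 31.6%. Dna2, a nuclease and helicase that trims Okazaki fragments, went from 49.1 and 50.5 CPM untreated to 171 and 171 at day 6, a log2 fold change of 1.78 ± 0.08 (SE, edgeR adjusted p = 7.5e-09). Within polymerase delta the subunits went apart, with Pold4 at 1.31 ± 0.18 (edgeR adjusted p = 6.34e-05) and Pold2 at -0.81 ± 0.12 (adjusted p = 0.000158), beside Pold1 at -0.41. Mcm8, a relative of the MCM ring that acts in recombination, was at -0.94 ± 0.19 (edgeR adjusted p = 0.00105). All 4 of these genes were also called under total counts, in the same directions.

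Among 24 genes of mitosis and G2, 19 rose at day 4 and 20 at day 6 under TMM, against 26.1% and 32% of all genes, and 17 and 7 of the 45 replication genes rose. Their median log2 fold change was 0.46 at day 4 and 0.47 at day 6, against 0.20 and -0.05 for the replication genes. Under total counts 5 rose and 1 fell at day 4, and 2 rose and 2 fell at day 6. Their medians were then 0.21 and 0.03, against -0.27 and -0.47 for all genes. Of all genes 14.7% rose and 36.7% fell at day 4, and 16.9% rose and 53.9% fell at day 6. Kif23, a motor of the central spindle, was at 1.21 ± 0.10 at day 6 (log2, SE, edgeR adjusted p = 1.14e-06) and Nusap1, a spindle protein, at 0.89 ± 0.10 (adjusted p = 1.04e-05), both also called under total counts. The chromosome passenger gene Cdca8 (0.73) and the centromeric histone gene Cenpa (0.69) were not called at day 6 under total counts. The ratio of the mitosis and G2 genes to the replication genes, as geometric means of counts within a library, was 1.03 and 1.07 untreated, 1.01 and 1.05 at day 2, 1.15 and 1.27 at day 4, and 1.49 and 1.47 at day 6. Untreated and day 2 libraries overlapped, and the later groups were each higher. The difference between the lists was not tested.

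**Figure D5:**
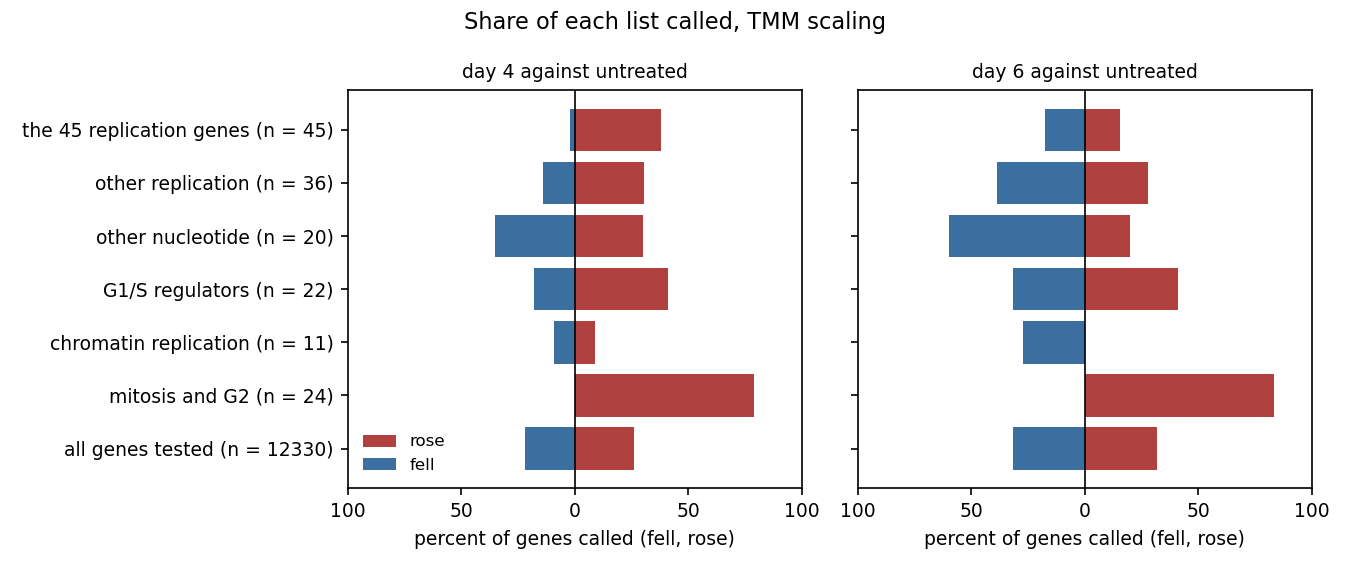
Percent of the genes of each list that rose (red, to the right) or fell (blue, to the left) at day 4 and at day 6 against untreated under TMM, with all 12330 genes tested as the last bar. Of the bars drawn, which leave out the single roles, the 24 mitosis and G2 genes have the longest red ones, which shorten to 5 and 2 genes under total counts, and the 20 other nucleotide genes have the longest blue ones.

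RefSeq held promoter windows for 36 of the 45 genes, 42 windows in all, and 9 genes had no entry (Gmnn, Mcm4, Gins1, Gins2, Gins4, Prim2, Pole, Rfc2 and Ccne2). An E2F-type word as spelled above was found in 14 of the 42 windows (33.3%), against 744 of 32851 windows of all genes (2.27%). By role, the word was found in 7 of 9 licensing genes with a window, 4 of 12 fork genes, 1 of 3 helicase activation genes, 1 of 4 chromatin genes, 1 of 3 G1/S genes and 0 of 5 nucleotide synthesis genes. The word TTTGAA, the core of the cell cycle homology region, was in 11.9% of these windows and 17.9% of all windows, and CCAAT, the NF-Y word, in 59.5% and 37.4%, on either strand. Of the members that fell at day 6, Mcm6 and Pold1 held an E2F-type word, and of those that rose, Mcm5 and E2f2 did. A match is a run of letters and not a shown binding site, and no match says only that these letters are absent from this window.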

How the data were processed

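Per the file headers, the deposited tables list Entrez gene IDs with a length and a count, and the authors' counts are whole numbers without normalization. Per the submitters' processing notes, which assign no roles, mm10, limma 3.22.0, edgeR 3.8.2, featureCounts and CASAVA 1.8.2 were used. Neither aligner nor strand setting is given in the sources used here. Overlapping genes on opposite strands may therefore share reads. Library totals ran from 9262047 to 11213292 counts, and 12555 of 12830 IDs matched a RefSeq symbol (GRCm38.p6). The IDs without a symbol held 2.24% of counts and were tested under their ID.

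All 8 libraries entered 1 edgeR 4.0.16 quasi-likelihood fit (R 4.3.3) with group means, TMM factors of 0.849 to 1.18 and filterByExpr, which removed 500 genes with 0.0267% of counts. Benjamini-Hochberg adjustment ran over 12330 genes and genes under 0.05 were called. The biological coefficient of variation came to 8.34%, with 4 residual and 7.08 prior degrees of freedom. Standard errors were taken as the absolute fold change over the root of F. CPM is the count scaled by TMM library size, and CPM per kb divides it by the deposited gene length. The code was tested on simulated data. Alternatives were RLE size factors, total counts with and without the gene above 5% of a library, no filter, DESeq2 1.42.0, a replicate block, only the groups compared, and leaving out each library.

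The 45 genes, their roles and the other lists were chosen with earlier results of these data known. Per library values are given for the 2 genes of each role with the largest absolute change at day 6, the 1 with the smallest, the 1 with the largest at day 2, and those called against most of their role. Of each other list at most 4 called genes with the largest change at day 6 were named, and any called against its list. Replicate numbers were not used to pair the libraries in the main fit. Correlations of replicate differences between groups ran from -0.138 to 0.200, which cannot exclude a weak pairing.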

Additional observations from a re-analysis of the deposited data

How the results depend on the processing

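Not every count of called genes kept its size. Under total counts the rises and falls were 1 and 0 at day 2, 3 and 2 at day 4, 1 and 35 at day 6, 1 and 1 from day 2 to 4, and 0 and 28 from day 4 to 6. Without the gene above 5% of a library they were 1 and 0, 6 and 4, 1 and 38, 1 and 9, and 0 and 40. Of all 12362 genes tested there, 293 rose and 402 fell at day 2, 2058 and 5349 at day 4, and 2261 and 7100 at day 6. From day 2 to 4 these were 1866 and 3740, and from day 4 to 6 they were 1100 and 3700. DESeq2 gave 1 and 1 from day 2 to 4, 9 falls from day 4 to 6, and other counts within 1.5 times. Of 12830 genes, DESeq2 called 2194 higher and 1374 lower from day 2 to 4, and 1089 lower from day 4 to 6. With only the groups compared, 1 rose at day 2, against 175 of 11913 genes. In that setting 0 fell at day 4, against 2491 of 12117 genes. RLE factors and no filter left every count within 1.5 times. With a replicate block in the fit, 1 gene fell from day 2 to 4 in place of 2, and 17 fell from day 4 to 6 in place of 20, so the block moved no other count by over 1.5 times.

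Without each library in turn, where a lone library was assumed to vary like the other groups, the rises ranged from 1 to 10 and the falls from 0 to 0 at day 2, 9 to 20 and 0 to 1 at day 4, 6 to 8 and 6 to 11 at day 6, 1 to 3 and 0 to 3 from day 2 to 4, and 0 to 0 and 3 to 23 from day 4 to 6. Role medians less the median of all genes moved only with libraries left out, by more than the spread, over these ranges. For licensing genes they were 0.19 to 0.29 (day 2), 0.19 to 0.32 (day 4) and -0.10 to 0.035 (day 6). For helicase activation genes they were 0.13 to 0.19 (day 2), 0.24 to 0.35 (day 4), 0.017 to 0.092 (day 6) and -0.23 to -0.14 (day 4 to 6). For fork genes they were 0.076 to 0.21 (day 2), -0.17 to 0.0029 (day 6), -0.065 to 0.090 (day 2 to 4) and -0.30 to -0.16 (day 4 to 6). For nucleotide synthesis genes they were 0.16 to 0.35 (day 2), 0.23 to 0.42 (day 4), 0.069 to 0.25 (day 6), -0.038 to 0.13 (day 2 to 4) and -0.20 to -0.069 (day 4 to 6). For chromatin genes they were 0.062 to 0.14 (day 2), -0.15 to -0.11 (day 6) and -0.28 to -0.052 (day 4 to 6). For G1/S genes they were 0.085 to 0.16 (day 2), 0.18 to 0.27 (day 6) and 0.15 to 0.35 (day 2 to 4). The share of promoter windows with an E2F word was 16.7% with 150 bases before the start alone.

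Single genes that were called under at least 1 of these scalings turned sign at day 6 against untreated under total counts, with and without the gene above 5% (given second where it differs). They were Cdc6 (-0.41), Cdt1 (-0.41), Mcm5 (-0.070, or -0.071), Cdc45 (-0.43), Gins4 (-0.33), Pole (-0.40), Rfc3 (-0.39), Lig1 (-0.41), Rrm1 (-0.33, or -0.34), Rrm2 (-0.15), Tyms (-0.33), Slbp (-0.35) and E2f1 (-0.0066, or -0.0068). Mcm10 (-0.26), Gins3 (-0.35) and Tk1 (-0.23) turned in both too, and were called only without that gene. At day 4 Rrm1 turned to -0.0093, or -0.0091. These turns come with the shift of all genes by scaling. Genes called without each library in turn were 1 of 6 at day 2, 8 of 18 at day 4, 11 of 15 at day 6, 1 of 5 from day 2 to 4 and 3 of 20 from day 4 to 6.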
